A study of Mus musculus with 24 samples.

Results

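The cholinergic genes described here are the 10 named by symbol in all 4 deposited tables: the neuronal nicotinic acetylcholine receptor subunits Chrna3, Chrna4, Chrna5, Chrna7, Chrnb2 and Chrnb4, and the genes of acetylcholine handling Chat, Slc18a3, Slc5a7 and Ache. All 10 were found among the 26260 genes listed in any table. The source material was 24 single guts of mouse embryos (embryonic day 12.5, mixed C57BL/6, 129/Sv and C3H background), from which poly-A RNA was sequenced. Guts were wildtype, homozygous for a Ret null or a Sema3d null allele, or homozygous for both (Ret-Sema3d double null), with 3 females and 3 males of each genotype; the labels name no allele further. The labels do not say which guts shared a litter. The p-values treat the guts as independent, and they may be too small if some guts shared a litter.

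Neuronal nicotinic receptors are ligand-gated cation channels built from subunits around a central pore. Receptors with Chrna3 and Chrnb4, with or without the accessory subunit Chrna5, carry fast transmission in autonomic and enteric ganglia, Chrna4 with Chrnb2 forms the commonest receptor of the brain, and Chrna7 can form a channel alone. Chat makes acetylcholine, the vesicular transporter encoded by Slc18a3 loads it into vesicles, the transporter encoded by Slc5a7 takes choline back up, and the esterase encoded by Ache ends the signal. Enteric neurons and glia arise from neural crest cells whose entry into the gut and growth depend on the receptor tyrosine kinase Ret. Sema3d is a secreted guidance protein of the semaphorin family. The comparisons ask how the loss of either gene, and of both, changes the RNA of the embryonic gut.

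The tables hold the authors' fitted coefficients and tests for each gene, and values per gut were not analysed here. A level below is therefore a fitted level in normalised counts, averaged over the sexes and computed from the coefficients, and its spread over guts is unknown. A change is the authors' log2 coefficient. Its standard error (SE) and 95% interval were derived from the coefficient and the deposited deviances, and they stand in for the replicate error. For a large fall to a level of a few normalised counts, such an SE can be too small and its interval too narrow. A gene was called changed at an adjusted p below 0.05. Adjusted p-values were recomputed from the deposited deviances, since some are deposited as 0. The Ret transcript checked the labels: its change in Ret null guts was -8.34 ± 0.24 (SE) in the authors' deposited table, from a fitted level of 1486 to 4.59. In Sema3d null guts the Sema3d transcript changed by -1.06 ± 0.11 in the authors' deposited table, from 823 to 394, so a part of it was still counted.

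The members lie at 7 loci of the GRCm38 build in the GENCODE M21 annotation. Chrna5 (chr9:54980880-55007779, plus strand), Chrna3 (chr9:55010111-55026562, minus strand) and Chrnb4 (chr9:55028154-55048779, minus strand) form a cluster, with gaps of 2.331 kb between Chrna5 and Chrna3 and 1.591 kb between Chrna3 and Chrnb4. Slc18a3 (chr14:32462438-32464850) lies within the span of Chat (chr14:32408203-32465989) on the same minus strand and shares 0 exon bases with it. The other members stand alone: Chrna4 at chr2:181018380-181043546, Chrnb2 at chr3:89746195-89764632, Chrna7 at chr7:63098692-63212569 and Slc5a7 at chr17:54273590-54299034 on the minus strand, and Ache at chr5:137287519-137294466 on the plus strand. Chrnb2 shares 1365 of its 8380 exon bases with Adar, which is transcribed from the opposite strand. The library kit marks the strand, per the labels' protocols, but the sources used here do not say whether the counting used it, and without it reads from those bases cannot be assigned to Chrnb2 or Adar.

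The 250 bases upstream of a RefSeq transcription start (table of build GRCm38.p6) were read for all 10 members, in 11 windows because Chrna5 has a pair of starts. They are printed for 3 members whose window holds no annotated exon: Chrna3 and Chrnb2, which fell without Ret, and Slc5a7, which was not called. The Chrna3 window is chr9:55026563-55026812, the Chrnb2 window chr3:89764633-89764882 and the Slc5a7 window chr17:54299035-54299284. All are shown 5′ to 3′ on the gene's own minus strand, and capitals mark a match to a searched motif.
Chrna3: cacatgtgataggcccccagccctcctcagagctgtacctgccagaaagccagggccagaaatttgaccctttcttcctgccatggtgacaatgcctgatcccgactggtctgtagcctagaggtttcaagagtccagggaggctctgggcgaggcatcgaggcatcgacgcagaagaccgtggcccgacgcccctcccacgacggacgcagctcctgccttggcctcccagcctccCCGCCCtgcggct
Chrnb2: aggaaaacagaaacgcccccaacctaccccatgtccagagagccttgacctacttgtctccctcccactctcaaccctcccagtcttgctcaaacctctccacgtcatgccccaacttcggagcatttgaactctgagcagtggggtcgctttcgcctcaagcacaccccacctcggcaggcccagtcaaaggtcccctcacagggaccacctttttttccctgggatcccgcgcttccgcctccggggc
Slc5a7: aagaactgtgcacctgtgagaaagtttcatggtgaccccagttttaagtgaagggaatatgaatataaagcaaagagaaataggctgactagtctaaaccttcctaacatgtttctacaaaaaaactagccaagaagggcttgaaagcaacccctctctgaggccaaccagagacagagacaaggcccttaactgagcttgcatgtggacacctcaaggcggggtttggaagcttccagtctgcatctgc
The motifs searched, on both strands, were the E-box CAGCTG, the GC box GGGCGG, the homeodomain core TAATTA, and TTCAGCACC and GGACAG. The last pair are the left and right parts of the repressor element bound by REST. No motif contains another. In the printed windows the only match was a GC box in Chrna3. GGGCGG was found in 6 of the 11 member windows, against 32.7% of 32851 windows of all genes, CAGCTG in 2 (those of Chrnb4 and Chat) against 4271 of the 32851, and GGACAG in 2 (1 window of Chrna5 and that of Chrnb4) against 18.7%. Windows that are not printed can hold annotated exon, 235 of the 250 bases for Chrnb4 and 80 for Chat, so a match there need not lie upstream of the gene. TAATTA, present in 4.84% of all windows, and TTCAGCACC, present in 0.301%, were in 0 of the 11, which says only that these letters are not in these windows. The printed windows of Chrna3 and Chrnb2 were 63.2% and 59.6% G and C and that of Slc5a7 45.6%, around a median of 52.4% over all windows.

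In wildtype guts Chrnb4 and Chrna3 had the highest level per kb of exon and Chat the lowest. From the 24-gut fit, the wildtype level was 219 normalised counts for Chrna3, 182 for Chrnb4, 106 for Chrna4, 58.8 for Chrnb2, 55.1 for Chrna5 and 28.2 for Chrna7. Among the handling genes it was 68.2 for Slc5a7, 51.8 for Ache, 36.0 for Slc18a3 and 5.75 for Chat. Per kb of exon the order of the subunit levels was Chrnb4 at 48.9, Chrna3 at 41.7, Chrna4 at 21.1, Chrna5 at 17.6, Chrnb2 at 7.02 and Chrna7 at 6.25. Per kb, Slc18a3 stood at 14.9, Slc5a7 at 12.1, Ache at 11.2 and Chat at 1.22. The tables give no error on a level, so whether neighbours in these orders differ beyond their spread is unknown. The level per kb of Slc18a3 was above that of Chat, within whose span it lies.

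**Figure D1:**
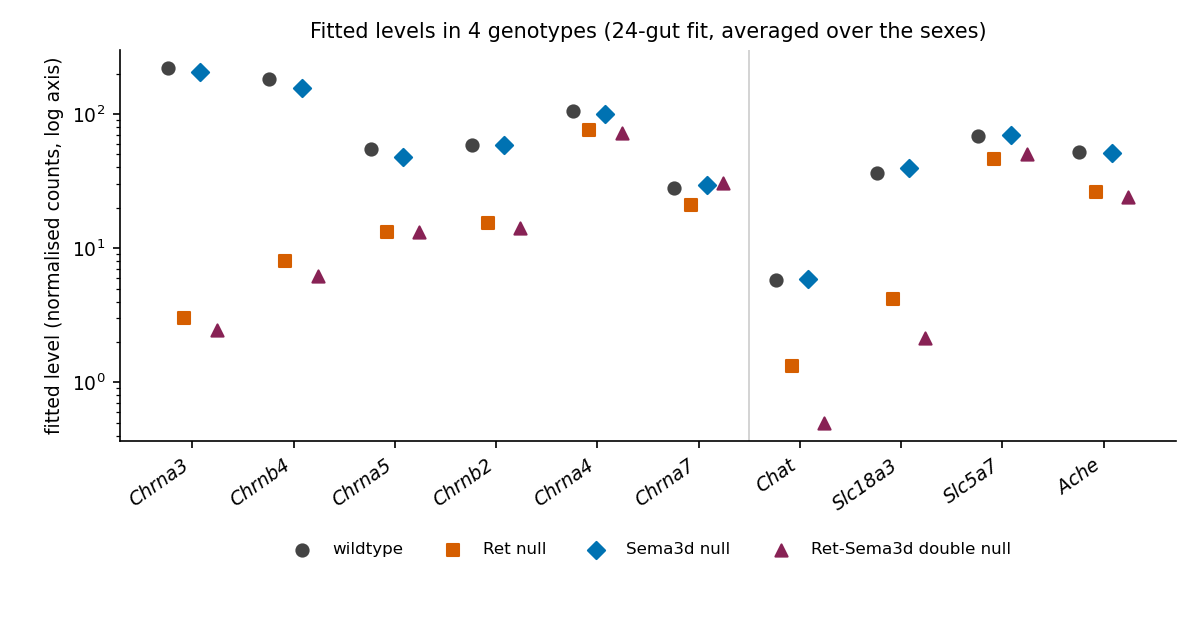
Fitted level of each member (normalised counts, log axis) in the 4 genotypes from the 24-gut fit, averaged over the sexes, with receptor subunits left of the line and acetylcholine handling genes right of it. Sema3d null levels lie next to wildtype for every member, and the Ret null and double null levels of Chrna3 lie near 3 and 2.5 normalised counts, below 219 in wildtype.

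Without Ret, 5 of the 6 receptor subunits fell, Chrna3 and Chrnb4 the most and Chrna4 the least. Chrna3, the ligand-binding subunit of the ganglionic receptor, fell from 214 to 2.96 normalised counts, which is 1.38% of the wildtype level (95% interval 1.04% to 1.85%). The log2 change of Chrna3 in the authors' deposited table was -6.18 ± 0.21 (SE), with an adjusted p of 8.62e-182. Its partner Chrnb4 fell from 178 to 7.90 normalised counts, or 4.44% of wildtype (3.45% to 5.73%), a log2 change of -4.49 ± 0.19 in the authors' deposited table. The derived intervals of these changes, -6.59 to -5.76 and -4.86 to -4.13, did not overlap, but at such low levels without Ret they may be too narrow. In a whole gut, fewer cells of a type and less RNA per cell cannot be told apart.

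The accessory subunit Chrna5 and the subunit Chrnb2 fell to a similar degree. Chrna5 went from 53.8 to 12.9 normalised counts, with a log2 change of -2.06 ± 0.24 in the authors' deposited table. Chrnb2 went from 57.4 to 15.1, with a log2 change of -1.93 ± 0.23 in the authors' deposited table. Their adjusted p-values were 7.36e-16 and 2.64e-15, and their intervals, -2.53 to -1.60 and -2.37 to -1.48, largely overlapped. Chrna5 kept 17.4% to 33.1% of its level (95% interval), next to Chrna3 in the genome, which kept 1.38%.

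Chrna4, the usual partner of Chrnb2 in the brain, fell little, to 71.3% of wildtype (59.1% to 86.0%). Its level went from 103 to 73.7 normalised counts, and the log2 change in the authors' deposited table was -0.49 ± 0.14 with an adjusted p of 0.0182. Chrna7, which can form a channel without partners, had levels of 27.6 and 20.3, and its log2 change of -0.44 ± 0.37 in the authors' deposited table did not pass the test (adjusted p = 0.935). The interval of Chrna7, -1.17 to 0.28, includes a change as large as that of Chrna4.

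Of the 4 acetylcholine handling genes, 2 were called lower without Ret. Slc18a3, the vesicular acetylcholine transporter, fell from 35.2 to 4.11 normalised counts, or 11.7% of wildtype, a log2 change of -3.10 ± 0.34 in the authors' deposited table with an adjusted p of 1.10e-17. Ache, the esterase, fell from 50.7 to 25.7, a log2 change of -0.98 ± 0.29 in the authors' deposited table with an adjusted p of 0.0268. Chat, the synthetic enzyme, had levels of 5.59 and 1.29, and its log2 change of -2.12 ± 0.73 in the authors' deposited table did not pass after adjustment (p = 0.00387, adjusted p = 0.117). Slc5a7, the choline transporter, had levels of 66.8 and 45.0, with a log2 change of -0.57 ± 0.20 in the authors' deposited table and an adjusted p of 0.142. The interval of Slc18a3, -3.76 to -2.43, lay below that of Slc5a7, -0.97 to -0.17, and the difference between the 2 genes was not tested beyond these intervals.

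In all, 7 of the 10 members were called lower and 0 higher in Ret null guts, where 2.27% of the 24602 genes in the authors' deposited table were called lower. At an unadjusted p below 0.05, 9 of the 10 were lower, against 5.47% of all genes. The median log2 change of the 10 members was -1.99, beside 0.00 over all genes with a bounded fit. Among the 12235 genes with a level of at least 50 normalised counts in either genotype, ordered from the most negative change, Chrna3 was at place 6, Chrnb4 at 17, Chrna5 at 70, Chrnb2 at 78, Ache at 161, Slc5a7 at 292 and Chrna4 at 344.

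**Figure D2:**
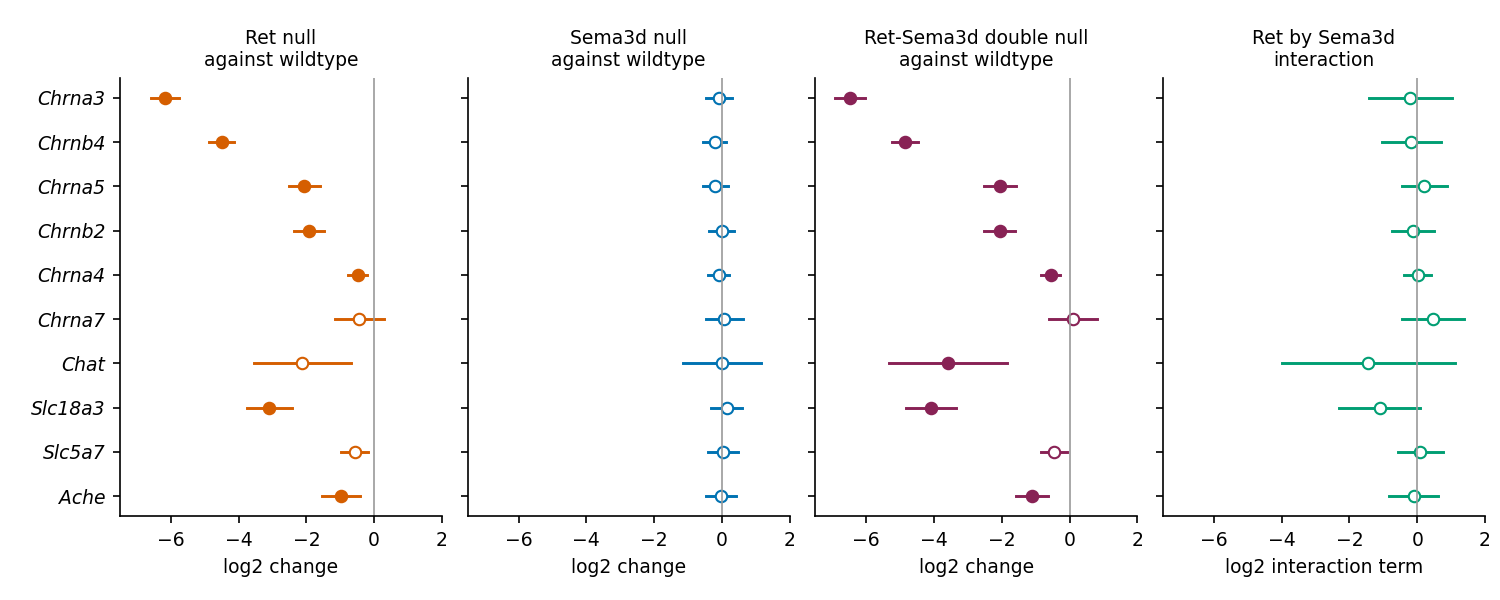
Log2 change of each member (point) with its derived 95% interval (line) in each mutant genotype against wildtype, and the interaction term of the 24-gut fit; filled points have an adjusted p below 0.05. Intervals of Chrna3 and Chrnb4 lie far below 0 in both genotypes without Ret, and all 10 intervals of the Sema3d null comparison and of the interaction include 0.

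In Sema3d null guts the authors' DESeq test called 0 of the 10 members. The changes in the authors' deposited table ran from -0.21 ± 0.17 for Chrnb4 to 0.14 ± 0.23 for Slc18a3, with a median of -0.02. It called 0.0404% of 24747 genes in this comparison in either direction in the authors' deposited table. At an unadjusted p below 0.05, 0 of the 10 members were changed, against 4.53% of all genes. For Chrna3 the level was 222 in wildtype and 209 in Sema3d null guts. The interval derived from the authors' deposited table, -0.47 to 0.29, leaves room for a fall to 72.2% or a rise to 123% of wildtype. The interval of Chrna4 was -0.42 to 0.22 and that of Chat, the least abundant member, -1.13 to 1.17.

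The double null guts showed 8 of the 10 members lower, where 1.87% of 24663 genes were called lower in the authors' deposited table. At an unadjusted p below 0.05, 9 of the 10 were lower, against 3.99% of all genes, and the median log2 change was -2.06. Chrna3 fell to 2.43 normalised counts, 1.12% of wildtype, a log2 change of -6.48 ± 0.22 in the authors' deposited table. Chrnb4 fell to 6.14, or 3.43% of wildtype, a log2 change of -4.87 ± 0.20 in the authors' deposited table. Among 12268 genes with a level of at least 50, Chrna3 was at place 2 and Chrnb4 at place 10 from the most negative change.

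Of the remaining subunits, 3 fell and Chrna7 was not called. In the authors' deposited table Chrnb2 changed by -2.06 ± 0.23, Chrna5 by -2.05 ± 0.23 and Chrna4 by -0.56 ± 0.14, with adjusted p-values of at most 0.00380. Chrna7 had levels of 27.9 in wildtype and 30.0 in double null guts, a log2 change of 0.10 ± 0.36 in the authors' deposited table that did not pass the test.

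Chat was called in the double null guts and not in the Ret null guts. Its level went from 5.84 to 0.485, a log2 change of -3.59 ± 0.89 in the authors' deposited table with an adjusted p of 0.00384. Slc18a3 fell from 35.6 to 2.09, a log2 change of -4.09 ± 0.38, and Ache from 51.0 to 23.7, a change of -1.10 ± 0.24, both in the authors' deposited table. Slc5a7 had levels of 67.2 and 49.0, and its change of -0.46 ± 0.20 in the authors' deposited table had an adjusted p of 0.499. The Ret null and double null comparisons share their 6 wildtype guts, so their values stand side by side and neither supports the other.

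The interaction term asks whether the change without both genes differs from the sum of the 2 single changes on the log2 scale. It was called for 0 of the 10 members, where 0.164% of 26258 genes were called in the authors' deposited table, and at an unadjusted p below 0.05 for 0 of 10 against 6.79% of all genes. The member nearest to a call was Slc18a3, with an interaction of -1.11 ± 0.61 in the authors' deposited table (p = 0.0694, adjusted p = 0.782). From the 24-gut fit its level was 36.0 in wildtype, 4.18 in Ret null, 39.6 in Sema3d null and 2.13 in double null guts. Chat, in the same locus, had an interaction of -1.44 ± 1.31 in the authors' deposited table (p = 0.269), with levels of 5.75, 1.32, 5.89 and 0.495. The difference between the call of Chat in double null guts and its lack in Ret null guts is therefore not a tested difference between those genotypes. In the authors' deposited table the interaction was -0.20 for Chrna3, -0.17 for Chrnb4 and 0.02 for Chrna4. The intervals derived from that table were -1.43 to 1.03, -1.04 to 0.69 and -0.38 to 0.42. A difference of up to 1.43 for Chrna3 and 1.04 for Chrnb4 between the double change and the sum of the single ones thus lies within the intervals.

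The make-up of the receptor transcripts differed between guts with and without Ret. Summed over the 6 subunits per kb of exon, the level was 143 in wildtype guts, 28.5 in Ret null guts, 130 in Sema3d null guts and 29.1 in double null guts. Chrnb4 and Chrna3 made up 34.3% and 29.2% of the sum in wildtype guts. In Ret null guts they made up 7.61% and 2.01%, and in double null guts 5.72% and 1.61%. The share of Chrna4 was 14.8% in wildtype guts, 52.8% without Ret and 49.0% without both genes, and that of Chrna7 was 4.39%, 16.3% and 23.2%. Chrna5 held 12.4%, 14.8% and 14.6%, and Chrnb2 4.92%, 6.48% and 5.77%. The larger shares of Chrna4 and Chrna7 were reached with lower or like levels, since Chrna4 stood at 21.1 per kb in wildtype and 15.05 in Ret null guts. Shares carry no error, because the tables give none on a level.

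**Figure D3:**
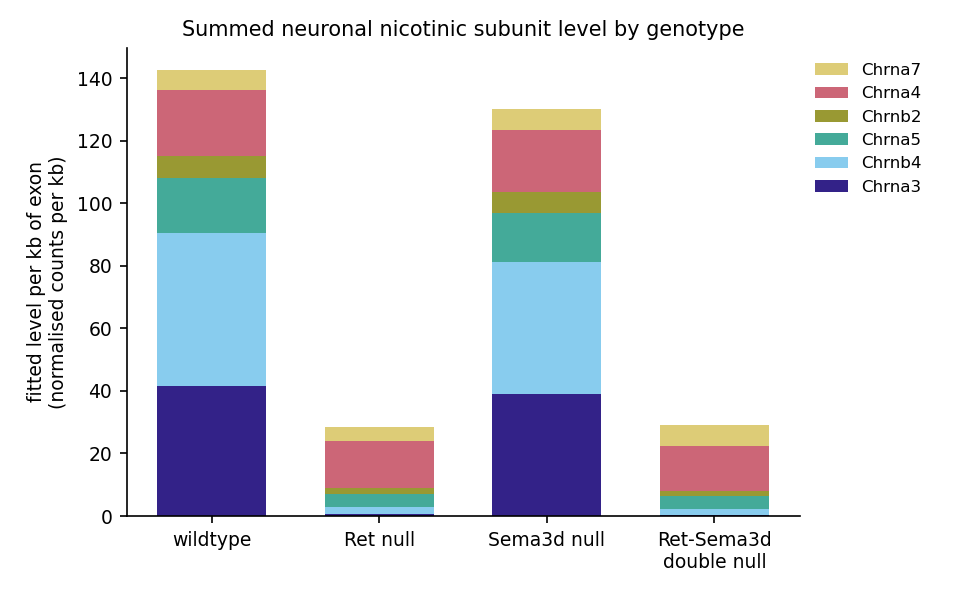
Stacked fitted levels of the 6 neuronal nicotinic subunits (normalised counts per kb of exon, linear axis from 0) in each genotype, from the 24-gut fit. The wildtype stack of 143 is mostly Chrnb4 and Chrna3, and the Ret null stack of 28.5 is mostly Chrna4.

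The other genes of cholinergic signalling were not called. Of the 10 other nicotinic subunits, 8 were in the Ret null table, and the authors' DESeq test called 0 in any of the 4 comparisons. At an unadjusted p below 0.05, 0 were changed without Ret. The muscle subunit Chrnb1, named here because it was the only one with a level above 2, stood at 41.6 in wildtype guts, and its log2 change in the authors' deposited table was 0.09 ± 0.19. Of the 5 muscarinic receptors, 0 were called in any comparison, and 1, Chrm1, had an unadjusted p below 0.05 without Ret. Chrm2, the main muscarinic receptor of smooth muscle, stood at 929 normalised counts in wildtype guts and had a log2 change of 0.16 ± 0.09 without Ret in the authors' deposited table. Chrm1, with a wildtype level of 4.82, had a change of -2.29 ± 0.83 (p = 0.00552, adjusted p = 0.153) in the authors' deposited table.

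Neither the genes that assemble or modulate nicotinic receptors nor those of choline supply and esterase anchoring were called in any comparison, 0 of 11 in each list. At an unadjusted p below 0.05 without Ret, 1 gene of the first and 3 of the second were lower, against 5.47% of all genes. Of the first list, the muscle kinase gene Musk, at a wildtype level of 2.23, had a value of -2.75 ± 1.30 without Ret in the authors' deposited table (adjusted p = 0.493), and Ly6h, at 74.2, one of 0.25 ± 0.16. Bche, the butyrylcholinesterase that also splits acetylcholine, had a change of -0.23 ± 0.10 (p = 0.0186, adjusted p = 0.345) in the authors' deposited table. Pcyt1a, of phosphatidylcholine synthesis, and Slc44a5, a choline transporter-like gene, had changes of -0.14 ± 0.06 and -0.44 ± 0.20 in the authors' deposited table.

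Transcription factors of autonomic neurons were lower in the same guts. In each genotype without Ret, 7 of 10 were called lower. Without Ret alone, Tlx2, a homeobox gene of enteric neurons, changed in the authors' deposited table by -5.94 ± 0.29. Isl1, Gata2 and Gata3 were not called, with changes of 0.18, -0.01 and 0.02 in the authors' deposited table.

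Neuronal and glial markers moved with the members. All 10 pan-neuronal markers were lower in Ret null guts, with changes in the authors' deposited table from -5.42 ± 0.19 for Elavl3 to -0.94 ± 0.09 for Uchl1 and a median of -2.50. Their summed level was 3317 normalised counts in wildtype and 775 in Ret null guts. Chrna3 lay below that whole range of changes, Chrna4, Chrna7 and Slc5a7 lay above it, and the other 6 members within it. Of 7 glial markers, 5 were lower in Ret null guts and 6 in the double nulls, Sox10 by -3.50 ± 0.21 without Ret in the authors' deposited table, and their summed level went from 1726 to 671 without Ret. The part of these markers' cells in the members' changes was not tested.

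Spinal motor neurons are another cholinergic cell type, and 0 of their listed markers were called in any comparison. Mnx1 and Isl2 had wildtype levels of 59.5 and 169 and changes of 0.24 ± 0.18 and 0.23 ± 0.14 without Ret in the authors' deposited table. Lhx3 and Lhx4 had levels below 2, and Olig2 was looked up but listed in none of the comparisons. The summed level of the list was 231 in wildtype and 269 in Ret null guts, and its part in the members' levels was not tested. Of the 5 sensory ganglion markers, 4 were in the Ret null table and 1 of these was called lower, Drgx under its older symbol Prrxl1. The skeletal muscle, smooth muscle, epithelial, mesenchymal, endothelial and red cell lists had 0 calls in Ret null guts. In double null guts all 4 endothelial markers were called higher, and their summed level went from 4359 to 5216, whose part was not tested. The share of all genes called higher in these guts was not computed.

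**Figure D4:**
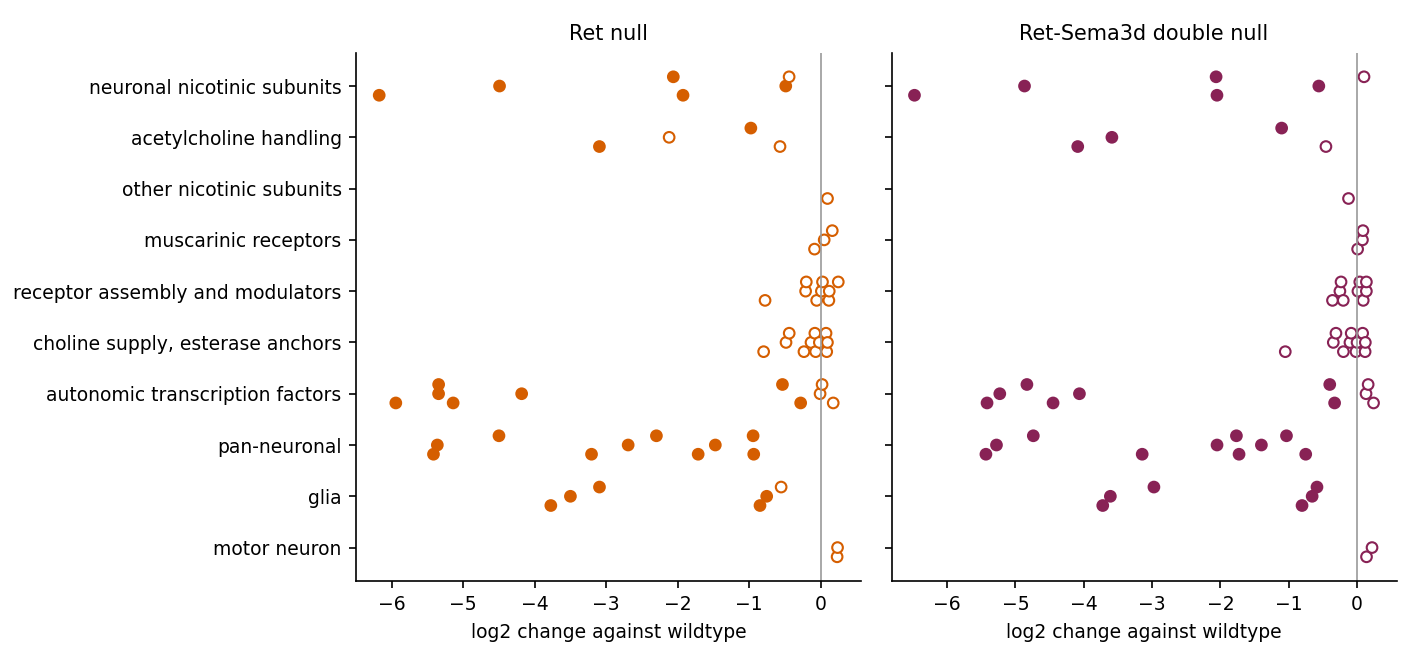
Log2 change of single genes (points) in Ret null guts (left) and double null guts (right) against wildtype, by gene list, for genes with a wildtype level of at least 5 normalised counts; filled points have an adjusted p below 0.05. Points of the muscarinic, assembly and choline supply lists are all open, and those of the pan-neuronal list are all filled and below 0.

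The genes most like a member were sought by the distance between their 3 genotype changes in the 24-gut fit, among 12180 genes with a wildtype level of at least 50. Nearest to Chrna3 were Stmn3 at a distance of 0.72, Dbh at 1.05, Tlx2 at 1.27 and Tubb3 at 1.32, in log2 units. Stmn3, a neuronal microtubule regulator, had changes of -5.83 without Ret and -5.86 without both genes in the authors' deposited table, beside -6.18 and -6.48 for Chrna3. Nearest to Chrnb4 were Cck at 0.18, Prph at 0.29, Scn3b at 0.43, Ina at 0.49 and Dlx2 at 0.50. Nearest to Chrna4 were Ksr2 at 0.03, Ccnd1 at 0.04, Pik3cd at 0.05 and Doc2b at 0.07. The nearest gene to Chrna3 was thus farther from it than the nearest genes to Chrnb4 and Chrna4 were from theirs.

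Of the neighbours of the cluster, 0 were called without Ret. The protein-coding neighbours Psma4, 22.9 kb before Chrna5, and Ube2q2 and Fbxo22, 100 kb and 160 kb beyond Chrnb4, had log2 changes of -0.02 ± 0.05, -0.02 ± 0.06 and 0.09 ± 0.07 without Ret in the authors' deposited table. At the Chat and Slc18a3 locus, Ogdhl and Ercc6 had log2 changes of 0.02 ± 0.07 and 0.05 ± 0.07 in the authors' deposited table. At Chrna4, Eef1a2, 104 kb from it, changed by -3.48 ± 0.76 in the authors' deposited table, beside -0.49 ± 0.14 for Chrna4. On the other side of Chrna4, Col20a1 and Arfgap1 had log2 changes of -0.28 ± 0.30 and -0.01 ± 0.06 in the authors' deposited table. Prrxl1, 133 kb from Chat, was called lower without Ret, with a wildtype level of 5.24 and a fit without a lower bound. In double null guts She, near Chrnb2, was higher by 0.36 ± 0.09 in the authors' deposited table.

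**Figure D5:**
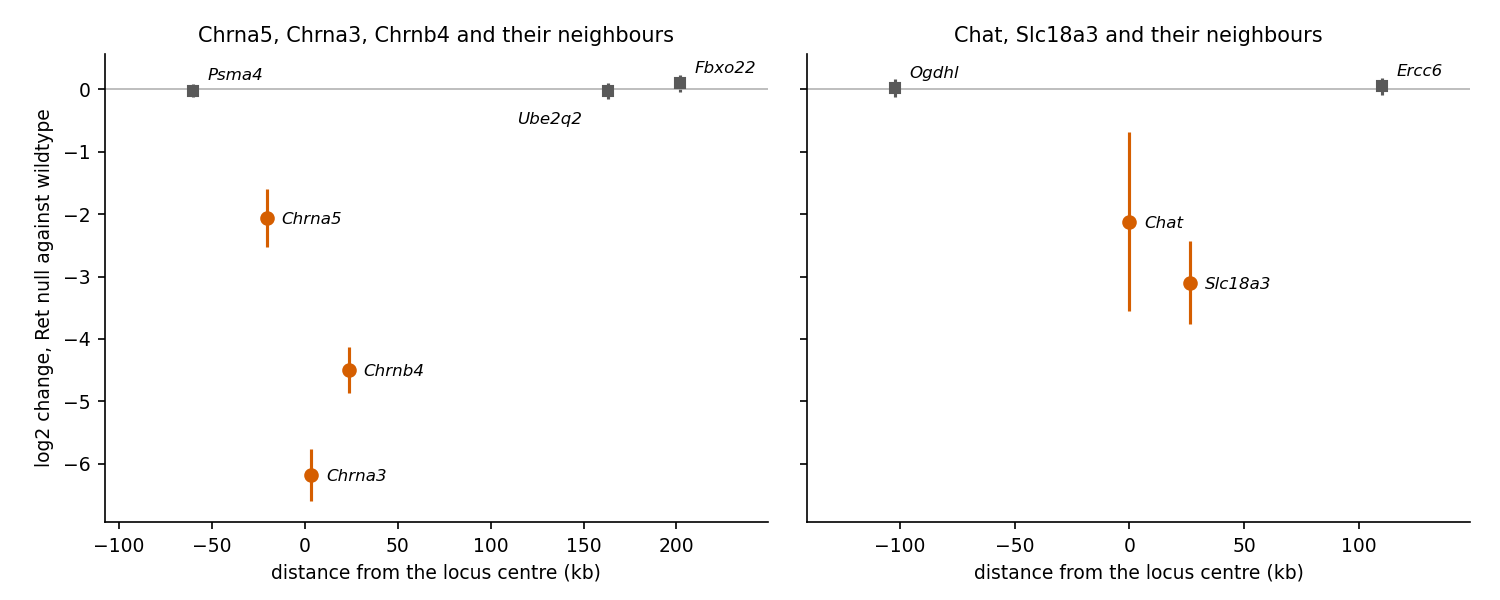
Log2 change in Ret null guts against wildtype (points, with derived 95% intervals) by distance from the locus centre in kb, for members (circles) and neighbouring genes with a wildtype level of at least 5 and a bounded fit (squares), at the Chrna5, Chrna3 and Chrnb4 cluster (left) and at Chat and Slc18a3 (right). The points of all 3 cluster members lie below -2, as do those of Chat and Slc18a3, with the neighbours drawn near 0. Calls are not marked, and Chat was not called.

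Sex entered every fit as a term without a deposited test. In the authors' deposited table of the 24-gut fit, the male over female coefficient of the members ran from -0.58 for Chat to 0.14 for Slc18a3, and that of Chrna3 was 0.07.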

How the data were processed

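Poly-A RNA from 24 single guts was measured, 6 per genotype. The submitters' processing notes list, without roles, DESeq 1.24.0, RSEM 1.2.31, STAR (no version), Trimmomatic 0.36 and FastQC 0.11.5, and the builds GRCm38 and mm10. Depth per library is unknown. In 3 tables of 12 guts the authors deposited log2 coefficients for intercept, sex and genotype. The authors also deposited deviances, and for the 24-gut table coefficients that are log2 values with a few unbounded fits; for the range check alone, both deposited kinds were entered as a score. P-values for the genotype or interaction term are the deposited output of the authors' DESeq fits. Calls used the deposited adjusted p-values, and the adjusted p-values printed here were recomputed from the deposited deviances.

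Columns were read by position, because the headers repeat names and are a cell short. P-values recomputed from the deviances (chi-square, 1 degree of freedom) equalled the deposited ones within 4.91e-09. The headers name no log base: base 2 gave summed wildtype levels of 11.5 to 12.0 (in units of 1000000 normalised counts), the natural base 432 to 458, and base 2 was used. The SE is the coefficient's size over the root of the drop in deviance. Coefficients beyond 15 were treated as unbounded. Levels per kb used GENCODE M21 exon lengths. The derived SE was tested on simulated data with a known dispersion. The outcome of that test is not given here. The derived SE can still be too small for a large fall to a few normalised counts, as for Chrna3 and Chrnb4 without Ret. Python 3.11.15, numpy 2.4.6, pandas 2.3.3 and scipy 1.17.1 were used.

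Named genes are all members, Ret and Sema3d, up to 3 genes per list by smallest p in Ret null guts, range ends, 2 neighbours on each side of a locus and the 5 genes most like each of the 3 most abundant members, unless the text says otherwise. A few genes that these rules select are not reported here. The members, lists and motifs were chosen with earlier results of these data known. Other call thresholds, adjustments, centrings and fits were tried.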

Additional observations from a re-analysis of the deposited data

How the results depend on the processing

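No paired analysis was possible because the tables hold no value per gut, and for the same reason no gut was left out in turn. In double null guts 5 of the 10 members passed a Bonferroni adjustment, against 8 after the Benjamini-Hochberg adjustment. In Ret null guts the count of 7 was 5 at an adjusted p below 0.01, 5 with Bonferroni, 9 at an unadjusted p below 0.05, and 6 of the 7 members with a level of at least 50. In Sema3d null guts and for the interaction the count was 0 under all 4 alternatives. Medians over the members moved by less than their median SE under each alternative tried, and in Ret null guts ranged from -2.002 to -1.93. All 70 single changes recomputed, with centring or with the 24-gut fit, moved by less than their SE and by at most 0.05. Levels of a few normalised counts limit Chat and, without Ret, Chrna3 and Slc18a3. In both genotypes without Ret the derived SEs of Chrna3 and Chrnb4 may be too small.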
